A study of Mus musculus with 4 samples.

Results

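The cytosolic ribosomal protein genes encode the protein parts of the ribosomes that translate nuclear-encoded mRNA. Members were chosen by name alone: every row with an Rpl or Rps symbol followed by a number, with Rpsa, Rplp0, Rplp1 and Rplp2 added. Of 84 such rows among the 23337 gene symbols measured, 80 had at least 20 counts in at least 1 library and were kept. They comprised 30 genes of the small subunit, 43 genes of the large subunit and 7 paralogs. Paralogs are related genes whose products are not standard parts of the ribosome or replace one. Counted with the paralogs is Rps4y2, which RefSeq lists as a transcribed pseudogene. The 73 small and large subunit genes are called core members here. Rpl26, Rpl30, Rpl34 and Rps27 did not reach the minimum.

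RNA came from lymphatic endothelial cells of mouse embryos at E14.5 (day 14.5 of gestation), from wild type litters and from litters of homozygous deletion mutants. Cells lacking CD45 and bearing LYVE1 and VECAD were sorted from the dorso-anterior part of the embryos, with a whole litter pooled for each genotype. One portion of each sort was lysed at once, and the other portion spent 7 days on OP9 stromal feeder cells with FLT3L, IL3 and SCF at 100 ng/ml each before a new sort for LYVE1 and VECAD. In the series title an enhancer that binds GATA2 is named, and the culture was meant to assess the potential to form blood cells. The deleted position is not stated in the labels, so no count checks the genotype, and no strain is named. Each group holds 1 library. No difference below therefore has a replicate check, no p-value is given, and every interval is a 95% interval for counting error only. Throughout, 4 values in a row refer to the wild type library before culture, the mutant library before culture, the wild type library after culture and the mutant library after culture.

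A ribosome holds 1 copy of nearly every ribosomal protein, and the genes are transcribed at high and similar rates in growing cells. Their mRNAs begin with a run of pyrimidines, the TOP motif, through which the growth regulator mTOR and the RNA-binding protein LARP1 control their translation. The stalk proteins Rplp0, Rplp1 and Rplp2 recruit the elongation factors, and Rplp1 and Rplp2 are present in more than a single copy. Inherited loss of 1 copy of several of these genes causes Diamond-Blackfan anaemia, a failure of red cell formation, and free Rpl5 and Rpl11 protein can bind Mdm2 and so stabilise p53. The genes are short and have left many processed pseudogenes, intron-free copies of their mRNA, across the genome.

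Copies matter for the counts because read pairs that align equally well at several places are not assigned to a gene. To show how alike the copies are, 60 coding bases around an exon junction are given for the 4 genes that were not kept and for 2 kept genes, each above its closest annotated copy. The sequences run 5′ to 3′ and come from GENCODE vM21 transcripts on GRCm38, the assembly also called mm10. Capitals in a gene mark the 2 bases that flank the junction, which in the genome are separated by an intron, and capitals in a copy mark bases that differ from the gene. Rps3, which shares no 75-base window with another annotated gene, is given last.
Rps27: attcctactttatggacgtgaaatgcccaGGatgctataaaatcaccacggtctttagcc
Rps27 copy Rps27rt: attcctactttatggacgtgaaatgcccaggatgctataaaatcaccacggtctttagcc
Rpl26: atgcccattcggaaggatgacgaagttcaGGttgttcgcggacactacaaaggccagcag
Rpl26 copy Gm15772: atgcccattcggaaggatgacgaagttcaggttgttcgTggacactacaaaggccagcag
Rpl30: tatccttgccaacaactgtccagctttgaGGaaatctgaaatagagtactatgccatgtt
Rpl30 copy Gm12191: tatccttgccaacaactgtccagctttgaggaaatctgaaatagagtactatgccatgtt
Rpl34: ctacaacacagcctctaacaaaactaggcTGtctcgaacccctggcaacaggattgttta
Rpl34 copy Rpl34-ps1: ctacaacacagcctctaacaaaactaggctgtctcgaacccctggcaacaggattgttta
Rpl10a: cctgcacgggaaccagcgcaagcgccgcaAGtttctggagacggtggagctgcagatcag
Rpl10a copy Rpl10a-ps1: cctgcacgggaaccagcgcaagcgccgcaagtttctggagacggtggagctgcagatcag
Rpl4: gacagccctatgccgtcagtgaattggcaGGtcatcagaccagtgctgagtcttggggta
Rpl4 copy Gm5835: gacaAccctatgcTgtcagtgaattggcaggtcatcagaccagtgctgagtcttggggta
Rps3: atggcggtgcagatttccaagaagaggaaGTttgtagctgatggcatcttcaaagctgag
The copies of Rps27, Rpl30, Rpl34 and Rpl10a carry no difference in this window, the copy of Rpl26 carries 1 and the copy of Rpl4 carries 2. Rps27 lies at chr3:90212522-90213651, Rpl26 at chr11:68901583-68906989, Rpl30 at chr15:34440505-34443640 and Rpl34 at chr3:130726831-130730398. Rpl10a lies at chr17:28328471-28331033, Rpl4 at chr9:64173375-64178666 and Rps3 at chr7:99477896-99483738.

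Across the core members, a median of 60.1% of the 75-base windows of the spliced transcripts occurred in no other annotated gene, with a range from 8.73% for Rpl9 to 100%, the value of Rps3. Fewer than 50% of windows were unique in 27 core members, and at least 90% were unique in 11. Within the coding sequence, 24 core members had no unique window. Rpl7a, a large subunit protein, shared windows with 64 annotated pseudogenes, the most of any core member. Since copies were sought only among annotated genes and for single mates of a pair, these shares describe sequence and are not the share of reads lost.

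Of the rows that were not kept, only Rps27 had less unique sequence than every core member. Rps27 had 1, 3, 0 and 0 counts and 1.48% unique windows. Rpl26 had 1, 2, 0 and 0 counts with 51.1% unique windows. Rpl30 had 1, 3, 0 and 0 counts with 75.5% unique windows. Rpl34, with 69.5% unique windows, had 4, 16, 3 and 6 counts. Within the coding sequence the unique shares of Rps27, Rpl26, Rpl30 and Rpl34 were lower, at 0%, 28.8%, 27.7% and 39.35%. Over the whole transcript 54 core members had a lower unique share than Rpl30, and the least covered of them, Rps29, had 197 counts over the 4 libraries. Rpl9, with the lowest unique share of the core, had 588, 1299, 209 and 555 counts, and Rpl10a, whose window above equals its copy, had 399, 995, 200 and 439. Summed over the 4 libraries, all 4 rows also lay below the background expected from silent receptor genes (described with the libraries). That expectation applied the receptors' rate per coding kb to the merged exon length of each row. For Rpl26, Rpl30, Rps27 and Rpl34 the sum came to 24.8, 51.8, 17.9 and 45.3 counts, against 3, 4, 4 and 29 observed. In the libraries after culture Rpl34 lay above it, with 3 and 6 counts against 1.42 and 4.26 expected. The reason for these near-empty rows was not tested, and the 4 genes are not interpreted as lowly expressed.

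Few counts lay on copies that have rows of their own. The closest copies of Rpl26 and Rpl30 had 0 counts in every library, and that of Rpl34 had 0, 4, 0 and 0. The 6 rows with a ribosomal pseudogene symbol summed to 46, 89, 18 and 35 counts. Copies with other symbols are outside this sum, such as Gm6654, a copy of Rps26, with 32, 51, 29 and 48 counts. Another, the Rps24 copy Gm9320, had 10, 23, 13 and 19. Among core members, the share of unique windows and the mean level per kb of exon had a Spearman correlation of 0.01, and with the level per kb of coding sequence it was 0.32. Both describe 73 genes that share the same 4 libraries. The median level per kb of coding sequence was 303 CPM in the 27 members under 50% unique, 281 CPM in the 27 between 50% and 75%, and 436 CPM in the 19 above.

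**Figure D1:**
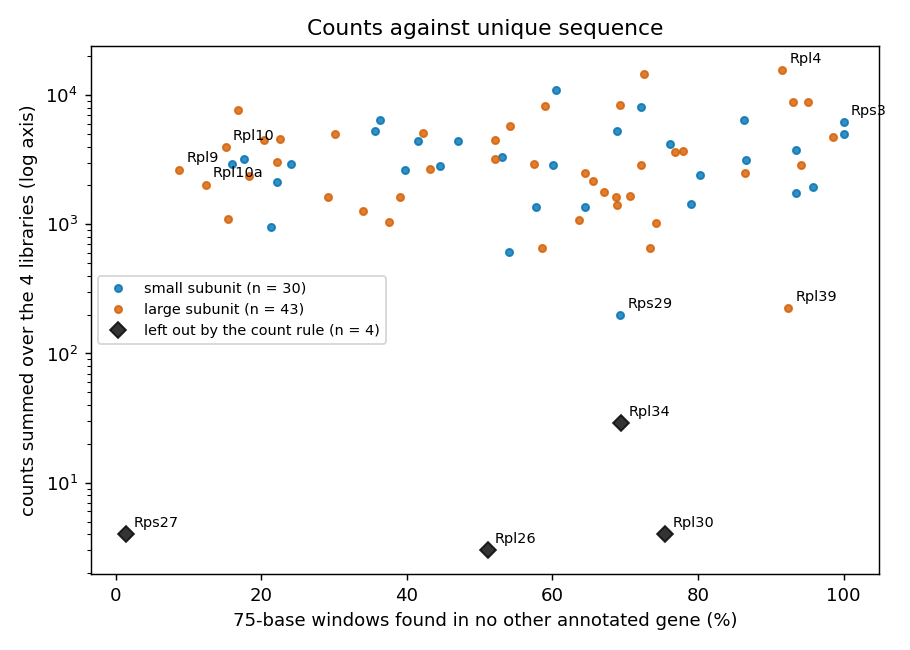
Counts of each core ribosomal protein gene summed over the 4 libraries (log axis) against the share of its 75-base windows found in no other annotated gene. Small subunit genes are blue, large subunit genes orange, and the 4 genes that were not kept are black diamonds, which lie at 3 to 29 counts over a wide range of unique shares.

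Gene counts came to 3987150, 7943587, 1694669 and 3931557, so the wild type library after culture carried the widest intervals. Scaling by the trimmed mean of M values (TMM) used factors of 1.25, 1.16, 0.811 and 0.851, and levels below are TMM-scaled CPM, counts scaled to an equal library total, unless said otherwise. Pairs that aligned to more than 1 place made up 5.23%, 5.29%, 7.45% and 6.53% of aligned pairs. Counts on 1429 olfactory and vomeronasal receptor genes, which lymphatic endothelium is not known to use, came to 6.65, 8.35, 0.538 and 1.61 per kb of coding sequence and served as a background, worth 1.94%, 1.05%, 0.319% and 0.443% of the members' counts. Lymphatic markers summed to 7590, 7177, 7517 and 6324 CPM over 7 genes. Pan-endothelial markers summed to 3719, 3929, 11223 and 10147 CPM over 6 genes, and stromal markers to 3076, 4920, 1102 and 904 CPM over 6. Leukocyte markers stayed between 104 and 206 CPM over 5 genes, and erythroid markers between 13.8 and 46.6 CPM over 6. Pdpn, Coro1a, Hbb-y and Lum were at 0 in the wild type library after culture. The part of these shifts in the results on ribosomal protein genes was not tested, and a bulk library cannot tell more cells of a type from more RNA per cell.

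The 80 members held 1.43% of gene counts in the wild type library before culture (interval 1.41 to 1.44), 1.66% in the mutant library before culture (1.65 to 1.67), 1.65% in the wild type library after culture (1.63 to 1.67) and 1.54% in the mutant library after culture (1.53 to 1.55). The wild type library before culture was the lowest, and the 2 genotypes changed order with culture. After background subtraction the shares were 1.65%, 1.82%, 1.70% and 1.59%, with the mutant library after culture the lowest and the order of the genotypes in each state as before. On the TMM scale the summed levels were 11409, 14327, 20385 and 18128 CPM. Of the 73 core members, 72 had their lowest level in the wild type library before culture, against 31.7% of the 18949 genes with at least 20 counts in a library. The highest level was in the wild type library after culture for 57 core members and in the mutant library after culture for 16. These lowest and highest positions were counted on the TMM scale only, as was every share over all genes given below. With plain library totals, culture in wild type cells gave 44 members an interval above 1 and 12 members one below. The large subunit held 1.56, 1.51, 1.53 and 1.55 counts for each count of the small subunit. The ratio was slightly higher in the wild type library before culture (1.53 to 1.58) than in the mutant library before culture (1.49 to 1.53), and the intervals of the 2 libraries after culture overlapped.

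**Figure D2:**
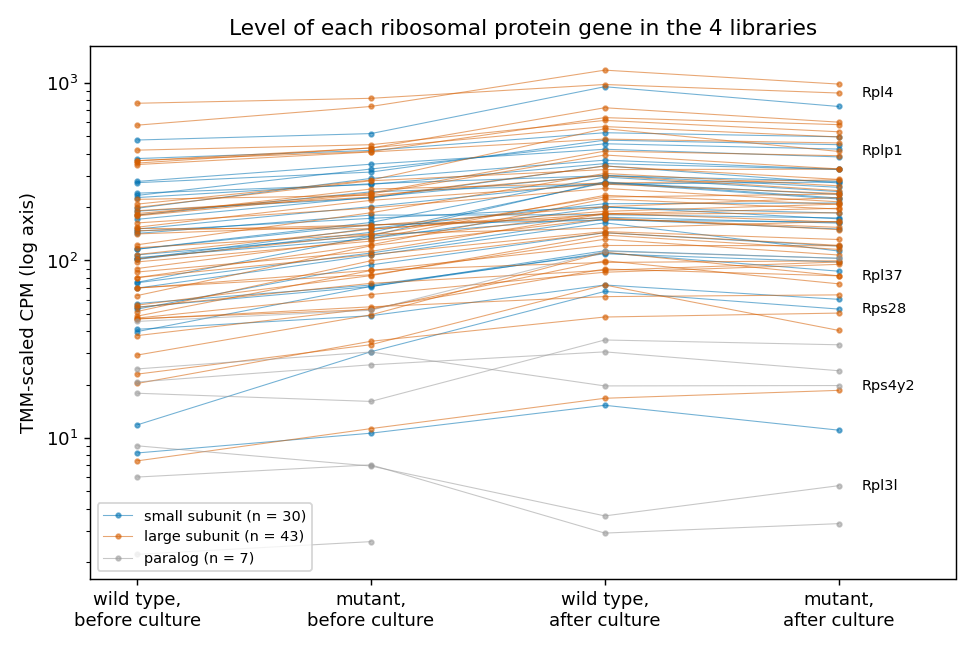
TMM-scaled CPM (log axis) of the 80 ribosomal protein genes in the 4 libraries, with 1 line per gene and colours for small subunit, large subunit and paralogs. Nearly all core lines are lowest at the left, in the wild type library before culture, and a count of 0 after culture (Rpl39l) is not drawn.

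Levels per kb of exon spanned a wide range within each library, although nearly all products are needed in equal number. Rplp1, an acidic stalk protein, was the highest core member in every library, at 416, 569, 1108 and 825 CPM per kb. Rplp0, the stalk protein that anchors it, stood at 349, 444, 712 and 594 CPM per kb. Rpl4, a large subunit protein, stood at 383, 408, 489 and 437 CPM per kb. At the other end, Rpl39, a very short protein of the peptide exit tunnel, stood at 5.18, 7.87, 11.7 and 12.9 CPM per kb, and Rpl35a at 6.49, 9.51, 20.6 and 11.4. The highest core member exceeded the lowest 80.4-fold, 72.3-fold, 94.96-fold and 72.02-fold. Merged exons include retained introns in this annotation. Per kb of coding sequence, a measure added after the data were seen, the spread was 14.3-fold, 13.7-fold, 17.8-fold and 18.3-fold, with Rps29 lowest in 3 libraries. On that scale Rplp1 was highest only after culture, at 1617 and 1203 CPM per coding kb, and Rps26 and Rps24 were highest before culture.

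The order of the core members by level per kb was much the same in the 4 libraries, with Spearman correlations from 0.95 to 0.99 between libraries over the same 73 genes. Gene length and sequence are shared by all libraries, so these values describe the set and are not evidence of common control.

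The first comparison was mutant against wild type directly after sorting. On the TMM scale, nearly all ribosomal protein genes were somewhat higher in the mutant library, and none by more than 2-fold beyond counting error. The median log2 fold of the 80 members was 0.38, against 0.04 over all 18934 genes tested, and their summed level was 1.26-fold higher (1.24 to 1.27) against 1.08-fold for all genes tested. The summed fold of all genes tested, here and below, is nearly fixed by the TMM factors and does not measure how other genes moved. The interval lay above 1 for 69 of 80 members, where 17.6% of all genes did so, and below 1 for 0, where 8.54% of all genes did. With the whole interval beyond 2-fold, 0 members were called higher and 0 lower, and among all genes 0.0158% and 0.0475% were. By subunit, 29 of 30 small subunit genes and 39 of 43 large subunit genes had an interval above 1, with medians of 0.40 and 0.41. Among the 7 paralogs it was 1. With plain library totals the median was 0.28, with 56 intervals above 1 and 0 below, and all genes were not counted on that scale. After subtraction of the background the median was 0.22, with a shift of -0.21 from the scaling. Then 47 members had an interval above 1, and 5 members, Rpl4, Rpl5, Rpl8, Rpl17 and Rpsa, had one below 1.

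Rps28, a very small protein at the mRNA exit side of the small subunit, differed most. Its levels were 11.8 CPM in wild type cells and 30.6 CPM in mutant cells before culture, from 59 and 282 counts, a fold of 2.59 (1.95 to 3.48). Rps28 lies at chr17:33819027-33824562. Rpl28 stood at 51.6 and 99.6 CPM, a fold of 1.93 (1.68 to 2.23), and Rpl27a at 63.4 and 121 CPM, a fold of 1.91 (1.68 to 2.17). Both are large subunit proteins on chromosome 7. Rps19, the small subunit gene most often mutated in Diamond-Blackfan anaemia, stood at 102 and 152 CPM, a fold of 1.48 (1.34 to 1.65). Rps3, which shares no 75-base window with another annotated gene, was at 233 and 328 CPM, a fold of 1.41 (1.32 to 1.51).

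The smallest differences were in large subunit genes. Rpl17 stood at 152 and 151 CPM, a fold of 0.994 (0.909 to 1.09). Rpl4, at 769 and 820 CPM, had a fold of 1.07 (1.03 to 1.11), and Rpl8, at 418 and 449 CPM, one of 1.07 (1.02 to 1.13). With plain library totals in place of TMM, Rpl4 and Rpl8 came to 0.99 and 0.996, so their direction rests on the scaling. Rpl5, the Mdm2-binding protein, had a fold of 1.05 (0.979 to 1.13), while its partner Rpl11 had one of 1.26 (1.11 to 1.43). Rpsa, also a laminin receptor, stood at 477 and 519 CPM, a fold of 1.09 (1.03 to 1.14), or 0.943 after background subtraction. The stalk genes Rplp0, Rplp1 and Rplp2 had folds of 1.27, 1.37 and 1.51.

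After culture the order of the genotypes was the other way round. The median log2 fold of mutant over wild type was -0.16 over 77 members tested, against 0.00 over all 12309 genes, and the summed fold was 0.889 (0.877 to 0.902) against 0.9502 for all genes tested. The interval lay below 1 for 28 of 77 members, where 12.3% of all genes did so, and above 1 for 0, where 9.48% did. Beyond 2-fold, 0 members were called, and among all genes 0.244% were called higher and 0.0731% lower. With plain library totals, where all genes were not counted, the median was -0.09, with 17 intervals below 1 and 1 above, that of Rpl12.

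Rpl35a, a Diamond-Blackfan gene of the large subunit at chr16:33056453-33060189, differed most after culture. It stood at 72.8 CPM in the wild type library and 40.4 CPM in the mutant library, from 100 and 135 counts, a fold of 0.555 (0.425 to 0.726). Rps15a, a small subunit protein, stood at 163 and 113 CPM, a fold of 0.694 (0.586 to 0.822). Rpl37, a zinc-binding large subunit protein at chr15:5116645-5119140, stood at 111 and 81.9 CPM, a fold of 0.736 (0.602 to 0.903). The 3 stalk genes were lower in the mutant library as a group. Rplp1 stood at 553 and 411 CPM, a fold of 0.744 (0.681 to 0.814), Rplp0 had a fold of 0.835 (0.786 to 0.886) and Rplp2 one of 0.852 (0.758 to 0.959). Rpsa had a fold of 0.774 (0.723 to 0.828). The highest by lower bound were Rpl12 at 1.13 (0.981 to 1.30), Rpl32 at 1.10 (0.951 to 1.27) and Rpl9 at 1.09 (0.929 to 1.29), all with intervals that hold 1.

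**Figure D3:**
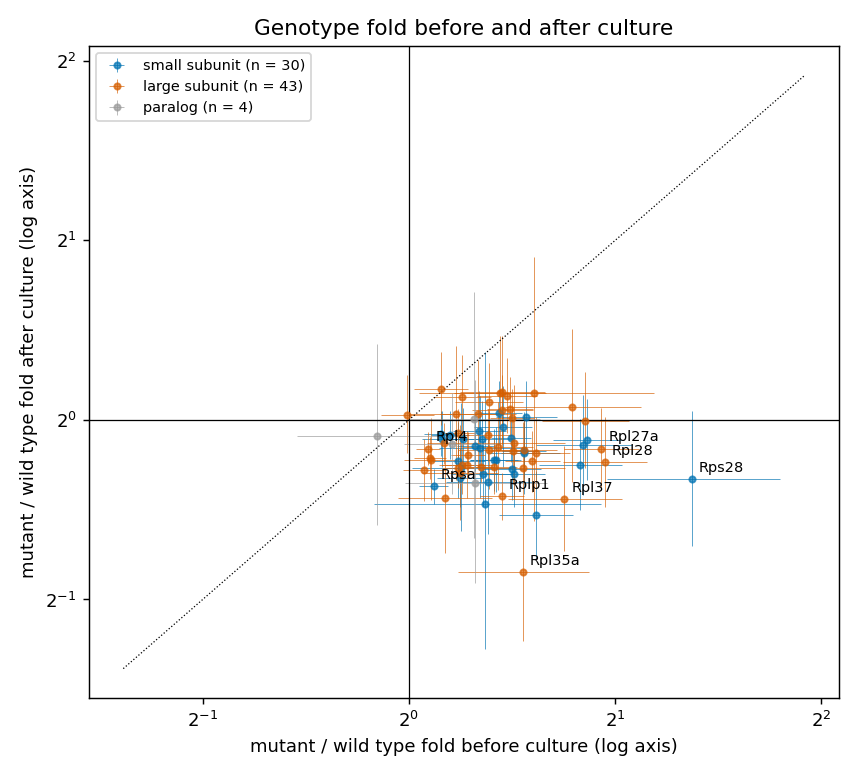
Mutant over wild type fold of the 77 ribosomal protein genes tested in both states, before culture (horizontal) and after culture (vertical), on log axes with 95% counting intervals. Most points lie right of 1 on the horizontal axis and at or below 1 on the vertical axis, and Rps28 and Rpl35a lie farthest out.

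The fold after culture divided by the fold before culture measures how far the genotype difference itself moved. Over the summed members it was 0.708 (0.696 to 0.720), with 0.687 (0.668 to 0.706) for the small subunit and 0.720 (0.705 to 0.737) for the large. The interval of this ratio lay below 1 for 65 of 77 members, where 21.4% of all genes tested did so, and above 1 for 0, where 8.03% did. The ratio was lowest for Rps28, at 0.308 (0.211 to 0.448), and for Rpl35a, at 0.379 (0.270 to 0.530). It was 0.685 with DESeq2 size factors, 0.800 with plain library totals and 0.823 after subtraction of the background. The interval lay above 1 before culture and below 1 after it for 26 members, which is 33.8% of those tested in both states, and 4.66% of all genes tested in both did the same. Across core members the log2 genotype folds before and after culture had a Spearman correlation of -0.01 over 73 genes, and over all genes tested it was -0.13.

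Culture was examined next, with the 2 portions of the same sort compared within each genotype. In wild type cells all 73 core members had an interval above 1 with TMM scaling. The median log2 fold of 79 members was 0.90, against -0.04 over all 17154 genes tested, and the summed fold was 1.79 (1.76 to 1.81) against 1.55 for all genes tested. The interval lay above 1 for 76 of 79 members, where 33.9% of all genes did so, and below 1 for 0, where 27.3% did. Beyond 2-fold, 18 members were called higher, 22.8% of the set, where 8.17% of all genes were, and 0 lower, where 5.77% were. With plain library totals the median was 0.28, 44 intervals lay above 1 and 12 below, and 1 member, Rps28, was called. That scaling shifts every gene by -0.62, and all genes were not counted with it. After background subtraction the median was 0.47, with a shift of -0.49 from the scaling, and 3 members, Rps28, Rpl37 and Rpl35a, were called.

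Rps28 rose most, from 11.8 to 66.9 CPM in wild type cells, a fold of 5.65 (4.03 to 7.98). Rpl37 rose from 29.3 to 111 CPM, a fold of 3.80 (3.01 to 4.80). Rpl35a rose from 22.9 to 72.8 CPM, a fold of 3.18 (2.41 to 4.196). All 3 have short coding sequences and were among the lower core members before culture. Rps6, the small subunit protein phosphorylated downstream of mTOR, rose from 108 to 277 CPM, a fold of 2.58 (2.25 to 2.94). Rplp1 rose from 208 to 553 CPM, a fold of 2.66 (2.42 to 2.93), and Rplp2 had a fold of 2.52 (2.22 to 2.86). Rpl35, Rpl28 and Rpl27a rose 2.77-fold, 2.78-fold and 2.71-fold, and Rpl19 rose 2.25-fold. Members called higher also included Rpl29, Rpl36, Rpl41, Rpl7l1, Rps16, Rps21 and Rps23. At the low end Rpl4 had a fold of 1.28 (1.20 to 1.36) and Rpl17 one of 1.20 (1.04 to 1.39). Their direction rests on the scaling, since Rpl4 and Rpl17 came to 0.828 and 0.779 with plain library totals and to 0.912 and 0.864 after background subtraction.

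In mutant cells the same comparison gave smaller differences, whose direction depended on the scaling. The median log2 fold of 80 members was 0.34 with TMM, against -0.10 over all 18807 genes, but -0.11 with plain library totals, where the median of all genes shifted by -0.45. The summed fold was 1.27 (1.25 to 1.28) with TMM, against 1.37 for all genes tested, and 0.928 with library totals. With TMM the interval lay above 1 for 63 members, where 32.4% of all genes did so, and below 1 for 3, where 27.0% did. With library totals those counts were 12 and 34, without a count of all genes. No member was called higher, where 5.19% of all genes were, and the call of the paralog Rpl39l as lower, where 3.62% were, is not read, since it entered only through its 24 counts before culture. Rpl23a, a large subunit protein, had the highest lower bound among core members, with levels of 113 and 197 CPM and a fold of 1.75 (1.58 to 1.93). Rps28 had a fold of 1.74 (1.43 to 2.11) in mutant cells, Rpl37 one of 1.66 (1.42 to 1.93), and Rpl35a one of 1.20 (0.976 to 1.48). Rplp0, Rplp1 and Rplp2 had folds of 1.34, 1.45 and 1.42, and that of Rplp0 was 0.981 with library totals.

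**Figure D4:**
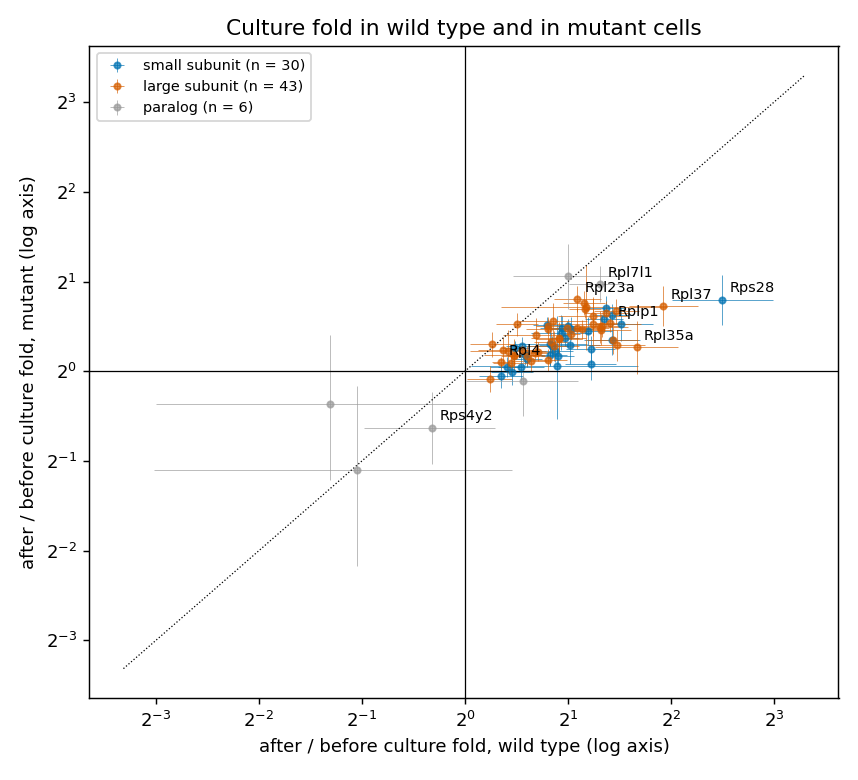
After over before culture fold of the 79 members tested in both genotypes, in wild type cells (horizontal) and mutant cells (vertical), on log axes with TMM scaling and 95% counting intervals. Most core members lie below the dotted line of equal folds, on the side where the fold in wild type cells is the larger, and the 3 paralogs at the left lie below 1 in both.

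The culture folds of core members had a Spearman correlation of 0.68 between genotypes over 73 genes, and over all genes tested it was 0.83. The libraries before culture carried more receptor background per kb than those after it, and the depth, the background and the culture cannot be told apart in this design. The genotype fold before culture, the ratio of genotype folds and the wild type culture fold all use the wild type library before culture. They are therefore not independent results, and the part of that single library in them was not tested.

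Short genes differed more than long ones. In wild type cells the 38 core members with under 500 coding bases had a median log2 culture fold of 1.17, the 33 with at least 500 but under 1000 had 0.80, and the 2 longest, Rpl3 and Rpl4, had 0.41. Before culture the genotype medians of the same classes were 0.49, 0.33 and 0.16. Other genes with under 500 coding bases had medians of 0.31 and 0.09 in these comparisons. The Spearman correlation of coding length with the fold over 73 core members was -0.51 for culture in wild type cells, -0.32 for culture in mutant cells, -0.48 for genotype before culture and 0.18 for genotype after culture. Over all genes with a coding length the 4 values were -0.04, 0.02, -0.02 and 0.15. These correlations describe genes that share their libraries. The genotype fold before culture and the culture fold in wild type cells also divide by the same library, wild type before culture.

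**Figure D5:**
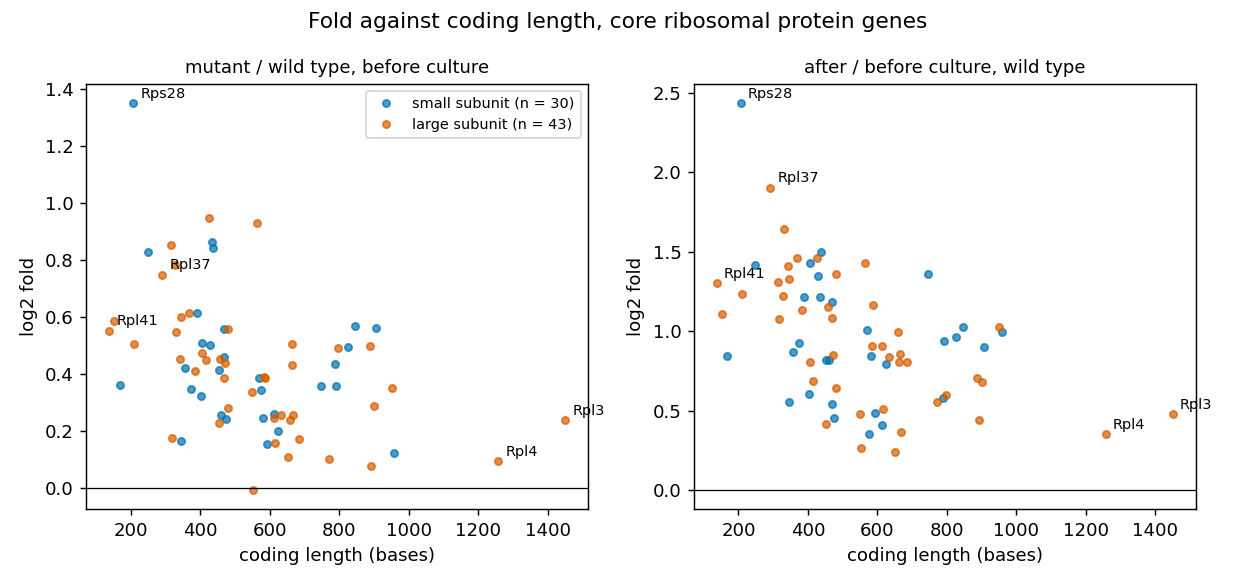
Log2 fold of the 73 core members against coding length in bases, for mutant over wild type before culture (left) and after over before culture in wild type cells (right). Both panels fall from short to long genes, with Rps28 highest and Rpl3 and Rpl4 at the right. Both folds divide by the same wild type library before culture, so the panels are not independent.

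The paralogs did not move as one. Rpl7l1, a relative of Rpl7, stood at 45.4, 52.4, 113 and 103 CPM and rose 2.49-fold (2.01 to 3.06) with culture in wild type cells. Rps27l, a p53 target in mouse cells, stood at 17.9, 16.1, 35.6 and 33.5 CPM, with culture folds of 1.996 (1.38 to 2.86) and 2.08 (1.62 to 2.68). Rpl22l1, which can replace Rpl22, stood at 20.7, 25.8, 30.6 and 23.9 CPM. Rps4y2, an older symbol of Rps4l that RefSeq lists as a transcribed pseudogene, stood at 24.5, 30.5, 19.6 and 19.7 CPM. Rpl39l and Rpl10l, known from testis, and Rpl3l, known from heart and skeletal muscle, had few counts. Rpl39l had 11, 24, 0 and 0 counts, and reached the minimum of 20 only through the mutant library before culture. Rpl10l had 30, 65, 4 and 11 counts, against 6.80, 8.54, 0.550 and 1.65 expected from the receptor background. Rpl3l had 45, 64, 5 and 18 counts, against 10.9, 13.7, 0.884 and 2.65.

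Of the 20 Diamond-Blackfan genes listed, 18 were kept, and Rpl26 and Rps27 were not. Before culture 16 of the 18 had an interval above 1 for mutant over wild type, where 17.6% of all genes did, with a median log2 fold of 0.39. After culture 8 had one below 1, where 12.3% of all genes did, with a median of -0.25. With culture the medians were 0.89 in wild type cells and 0.28 in mutant cells, against 0.90 and 0.35 for the whole core, and with plain library totals they were 0.27 and -0.17.

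On the TMM scale, other parts of the translation machinery had smaller medians than the core members before culture and in the culture of wild type cells. Among 19 further TOP mRNAs tested, which encode translation factors and RNA-binding proteins, 15 had an interval above 1 and 1 below for mutant over wild type before culture, where 17.6% and 8.54% of all genes did. After culture 0 were above and 9 below, where 9.48% and 12.3% of all genes were, and the medians were 0.23 and -0.09. After background subtraction the counts before culture were 5 above and 4 below. Eef2, the elongation factor that moves the ribosome along, had genotype folds of 1.27 (1.23 to 1.31) and 0.881 (0.846 to 0.917), and rose 2.23-fold (2.13 to 2.32) with culture in wild type cells. Eef1a1, which delivers aminoacyl-tRNA, had genotype folds of 1.10 and 0.796. Ribosome assembly factors (30 genes) had culture medians of 0.33 and 0.11 in wild type and mutant cells, with 0 called, and Ncl, the main nucleolar protein, had folds of 1.07 and 1.01. RNA polymerase I subunits and factors (12 genes) had medians of 0.29 and 0.14, with 0 called. Among all genes 8.17% and 5.19% were called higher with culture in wild type and mutant cells, and 5.77% and 3.62% lower. The 76 mitochondrial ribosomal proteins, which serve a separate ribosome, had genotype medians of 0.14 and -0.05 and culture medians of 0.59 and 0.40, with 2.63% of them, Mrpl10 and Mrps34, called higher in wild type cells, where 8.17% of all genes were. Their share of gene counts was 0.172%, 0.178%, 0.176% and 0.179%. After background subtraction their culture median in wild type cells was 0.60, above the 0.48 of the core members, so this order rests on the scaling. With plain library totals the culture medians were -0.28 and -0.33 for assembly factors, -0.33 and -0.30 for RNA polymerase I and -0.02 and -0.04 for mitochondrial ribosomal proteins, so their direction rests on the scaling, and 0 genes of the TOP list, Eef2 included, were called.

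Regulators of TOP mRNAs and growth (19 genes) had culture medians of 0.73 and 0.45, or 0.11 and 0.0042 with plain library totals. Eif4ebp1, a translation repressor under mTOR control, rose 4.47-fold (3.56 to 5.61) in wild type and 2.66-fold (2.28 to 3.12) in mutant cells, and Larp1 had folds of 2.12 (1.90 to 2.36) and 1.76 (1.64 to 1.89). The list of p53 and its targets (12 genes) had 9 members called higher with culture in wild type cells, where 8.17% of all genes were, and 8 in mutant cells, where 5.19% were, with medians of 2.32 and 2.16. Ccng1 rose 7.00-fold and 7.65-fold and Zmat3 rose 6.75-fold and 6.82-fold. The genotype medians of that list were 0.049 before and -0.032 after culture, and both changed sign with plain library totals, to -0.058 and 0.036.

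Promoter sequences were available for 63 of the 84 rows (RefSeq, GRCm38.p6). A run of at least 8 pyrimidines beginning with C, on the coding strand within 50 bases of the start, was found in 82.5% of them, against 32.0% of all genes. The letters CCGGAAG, searched on both strands from 250 bases before to 50 after the start, were in 41.3%, against 9.93% of all genes, and AAGATGGC was in 9.52%, against 3.19%. The reverse complement of the former, CTTCCGG, can overlap a pyrimidine run. To show the run in members at both ends of the culture response, 50 bases before to 15 after the annotated start are given 5′ to 3′ on the coding strand, with runs in capitals.
Rpl28: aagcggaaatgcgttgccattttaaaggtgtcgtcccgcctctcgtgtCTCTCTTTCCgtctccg
Rpl27a: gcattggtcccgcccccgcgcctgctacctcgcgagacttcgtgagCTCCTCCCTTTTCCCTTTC
Rpl35: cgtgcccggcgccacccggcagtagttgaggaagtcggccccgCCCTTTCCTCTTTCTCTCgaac
Rpl4: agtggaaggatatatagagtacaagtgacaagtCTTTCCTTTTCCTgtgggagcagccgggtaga
Rps28: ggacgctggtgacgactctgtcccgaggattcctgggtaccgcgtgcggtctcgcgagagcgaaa
The windows are chr7:4792915-4792979 and chr7:109519145-109519209 on the plus strand, chr2:39005117-39005181 on the minus strand, chr9:64173337-64173401 on the plus strand and chr17:33824548-33824612 on the minus strand. Rpl4, with a culture fold of 1.28 in wild type cells, and Rpl35, with 2.77, both hold a run. In Rps28, which had the highest fold, no run lies in this window, which says only that these letters are not there.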

How the data were processed

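The deposited values are whole-number counts of read pairs for each gene symbol, 1 table per library, not normalized. The authors used bcl2fastq, STAR and HTSeq 0.11.2 on mm10, per the submitters' processing notes, and removal of duplicates by sambamba is stated in the table names. Which annotation and strand setting were used, and the versions of the other tools, is not given in sources used here. Libraries came from total RNA by a stranded Smart-Seq kit with paired reads of 75 bases, per the labels' protocols. Removal of duplicates can lower the counts of short abundant genes, and leaving out multiply aligned pairs lowers genes with copies. Its size for single genes was not measured. HTSeq's 5 summary rows were kept out of totals.

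Counts were scaled with TMM (edgeR 4.0.16, R 4.3.3), with DESeq2 1.42.0 size factors, plain library totals and subtraction of the receptor background as alternatives. A fold is the ratio of 2 scaled levels with a 95% Clopper-Pearson interval (SciPy 1.17.1), tested where at least 20 counts were in 1 of the 2 libraries, and called where the whole interval lay beyond 2-fold. Log2 folds of lists used a prior count of 2. With 1 library per group no significance test was run between single groups, nor an additive model of genotype and culture, and pairs that share an amplified molecule are not independent. The design had named genome sequence for the search for copies, but only GENCODE vM21 transcripts of GRCm38 were used, pseudogenes included. Exons of all transcripts of a gene were merged for lengths. The procedure was tested on counts simulated with counting error only, so that test says nothing of amplification or of spread between replicates.

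The members and the lists were chosen with earlier results of these data known. Genes were named where they were called (up to 6 a direction), had 1 of the 3 highest lower or lowest upper bounds in a comparison, had the 5 most or fewest counts per kb, or were among 13 standing names and the paralogs. Other lists gave up to 3 called genes with the most counts, or the 2 with the most counts where none was called. Rps29, Rps24, Rps26, Rpl7a, Rpl3 and the lists of called or lower members were named after their values were seen. Some genes that these rules select are not reported here by name, although the counts include them.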

Additional observations from a re-analysis of the deposited data

Results flagged for a closer look

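The genotype difference had opposite directions before and after culture in 11 of the members named: the interval of mutant over wild type lay above 1 before culture and below 1 after it. With 1 library per group the difference was not tested against replicate spread. Rpl35a had a fold of 1.47 before and 0.555 after culture. For Rpl37 the values were 1.69 and 0.736, and for Rpl4 they were 1.07 and 0.895. Rpl8 had a fold of 1.07 before and 0.863 after culture. For Rplp0 the values were 1.27 and 0.835, and for Rplp1 they were 1.37 and 0.744. Rplp2 had a fold of 1.51 before and 0.852 after culture. For Rps14 the values were 1.33 and 0.856, and for Rps15a they were 1.53 and 0.694. Rps6 had a fold of 1.28 before and 0.811 after culture. For Rpsa the values were 1.09 and 0.774. The pattern was lost for Rpl4 and Rpl8 with plain library totals, where their folds before culture were 0.99 and 0.996, and after background subtraction, where they were 0.924 and 0.930. It was lost for Rpsa after background subtraction, with 0.943 before culture. These are folds that crossed 1, and the pattern can also be lost where an interval comes to hold 1. With plain library totals, only 2 of the 3 stalk genes still had an interval below 1 after culture. Of all members, 26 of 77 showed this pattern with TMM scaling. Members whose interval held 1 in either state, such as Rps28 after culture, are not among them.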

How the results depend on the processing

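The labels carry no replicate numbers, and each genotype gives 1 pair of libraries, before and after culture of the same sort. A fit over both pairs with the sort as a block, which would have 1 residual degree of freedom, was not run. The medians and counts below are over the members, on the log2 scale for medians, and shares over all genes were counted with TMM only. The cause of each move was not tested, apart from settings that change how many genes enter and the shift each scaling gives every gene. For plain totals that shift was -0.11, 0.069, -0.62 and -0.45 for genotype before and after culture and culture in wild type and mutant cells. For background subtraction it was -0.21, 0.022, -0.49 and -0.26 in the same order, on top of the subtraction itself. TMM factors computed without the ribosomal protein genes, no count minimum and a prior count of 0.5 moved none of these medians, counts and ratios beyond their allowed spread.

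DESeq2 size factors gave medians of -0.22 for genotype after culture, 0.97 for culture in wild type cells and 0.36 in mutant cells, and a ratio of genotype folds of 0.685. Plain library totals gave 0.28 for genotype before culture, -0.091 after culture (1 interval above 1 and 17 below), 0.28 for culture in wild type cells (1 called, 44 above and 12 below), -0.11 in mutant cells, a reversal (12 above and 34 below), and a ratio of 0.800. Background subtraction gave 0.22 for genotype before culture (5 below), 0.47 for culture in wild type cells (3 called, 5 below), 0.097 in mutant cells (0 called lower, 35 above, 13 below) and a ratio of 0.823, with shares of gene counts of 1.65%, 1.82%, 1.70% and 1.59%.

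A minimum of 100 counts left 76 members for culture in mutant cells, with a median of 0.35, 0 called lower and 1 interval below 1. Keeping the 15 members with at least 90% unique windows gave medians of 0.26 (11 above) and -0.19 (6 below) for genotype before and after culture. For culture it gave 12 above with 2 called in wild type cells and 0.24 (10 above) in mutant cells. The shares were 0.330%, 0.367%, 0.355% and 0.327%. Those 15 are 11 core members and the paralogs Rpl3l, Rpl7l1, Rpl10l and Rpl39l, so the setting also changes the mix of genes. The 19 core members with at least 75% unique windows had medians of 0.41 and -0.21 for genotype before and after culture. Their culture medians were 0.91 in wild type cells and 0.24 in mutant cells. Taking unique windows as the length moved 132 levels per kb of named members beyond counting error and left 12 within it. Core members alone, an alternative added after the data were seen, gave 0.41 for genotype before culture and 0.35 for culture in mutant cells, with 0 called lower and 0 below 1.

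With plain library totals, single-gene folds on the other side of 1 were, before culture, 0.99 for Rpl4 and 0.996 for Rpl8. For culture in wild type cells they were 0.779 for Rpl17, 0.828 for Rpl4, 0.955 for Rpl8, 0.924 for Rpl12, 0.836 for Rpl9, 0.946 for Rps27a, 0.883 for Rpl5, 0.906 for Rpl11 and 0.959 for Rpl22l1. In mutant cells they were 0.931 for Rpl27a, 0.896 for Rpl28, 0.904 for Rpl17, 0.785 for Rpl4, 0.867 for Rpl8, 0.863 for Rpl9, 0.981 for Rplp0, 0.834 for Rps14, 0.891 for Rpl10a and 0.95 for Rps3, and the summed members came to 0.928. After background subtraction, they were 0.924 for Rpl4, 0.930 for Rpl8, 0.977 for Rpl12 and 0.943 for Rpsa before culture. For culture they were 0.864 for Rpl17, 0.912 for Rpl4, 0.944 for Rpl9 and 0.988 for Rpl5 in wild type cells, and 0.898 for Rpl4, 0.992 for Rpl8, 0.996 for Rpl9 and 0.957 for Rps14 in mutant cells. Depth limits the wild type library after culture most, where 3 counts equal 1.77 CPM before TMM scaling.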
